A study of Mus musculus with 12 samples.

Results

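The ISG15 conjugation system was described here through 5 genes, Isg15, Uba7, Ube2l6, Herc6 and Usp18, which were found by their symbols as 5 of the 17285 genes measured in both tumors and cell lines. ISG15 is a small ubiquitin-like protein that cells make in response to type I interferon. It is attached to other proteins by a chain of enzymes of the same kind as those for ubiquitin: an activating enzyme (E1), a conjugating enzyme (E2) and a ligase (E3), and a protease takes it off again. Some ISG15 also stays free or is secreted, and the protease of the system has a separate role at the interferon receptor, where it dampens signaling.

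RNA came from #781 cells, a melanoma line isolated from mice with Tyr-CreERT2 and a Cre-activated BRAF V600E allele, among others, on the C57BL/6 strain. There were 3 NRF2 knockout tumors, 3 control tumors, 3 NRF2 knockout cell line samples and 3 control cell line samples, 12 in all. Nfe2l2, the gene of NRF2, was disrupted with 2 guide RNAs used together, and 1 set of knockout and control cells was injected under the skin of immunocompetent C57BL/6 mice of both sexes aged 6 to 7 weeks. Whole tumors were extracted, and each tumor value therefore includes host cell RNA, and the cell line samples were grown in DMEM with serum. The labels do not say whether the 3 cell line samples of a group were separate cultures. The paper describes 2 independent sets of knockout and control cells, and the sample titles do not say which set the cell line samples came from. A difference between sets could therefore not be told apart from one between tumors and cell lines. The values used were the authors' average level of each gene, 1 for the tumors and 1 for the cell lines, each taken over knockout and control samples together. They are called average log2 CPM here, where CPM is the count of reads scaled to the library's total. Their sums on the CPM scale fit the logarithm of an average CPM to which a small constant was added for every gene, close to the lowest value of each table, so CPM values and ratios below include that constant. Knockout and control samples cannot be told apart in such an average, so the comparison made here is that of tumors with cell lines. An effect of the knockout that differs between tumors and cell lines would be part of these differences and cannot be told apart from them. The paper reports Isg15 as higher in its NRF2 knockout tumors than in control tumors. For a set of antiviral defense genes, it reports a larger rise with the knockout in tumors than in cell lines. With 1 average per gene and table there was no replicate error, no depth per sample and no test, and differences are described by their size against those of all 17285 genes. The tables may have been normalized separately, which applies to every level set across them.

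Isg15 (ENSMUSG00000035692) encodes the modifier itself and lies on chromosome 4 from 156199424 to 156200818 of GRCm38 on the minus strand, with 2 exons and a single annotated transcript of 756 bases. Uba7 (ENSMUSG00000032596), the E1 enzyme that activates ISG15, lies on chromosome 9 from 107975505 to 107984060 on the plus strand. Its coding transcript has 24 exons and 3195 bases. Ube2l6 (ENSMUSG00000027078), the E2 enzyme that carries ISG15, lies on chromosome 2 from 84798828 to 84810335 on the plus strand, and its longest coding transcript has 4 exons and 1560 bases. Herc6 (ENSMUSG00000029798), the main ISG15 ligase of the mouse, lies on chromosome 6 from 57581000 to 57664632 on the plus strand with 23 exons and 4767 bases. Usp18 (ENSMUSG00000030107), the protease that removes ISG15, lies on the same chromosome from 121245906 to 121270917 on the plus strand with 11 exons and 1771 bases. All 5 genes are annotated as protein coding. Lowly expressed genes overlap 3 of them, Gm20661 with Uba7, Gm45193 with Herc6 and Gm44148 with Usp18. Gm20661 had an average log2 CPM of 0.05 in tumors and −0.73 in cell lines, against 4.69 and 1.95 for Uba7. Gm45193 was at 0.26 in tumors and −0.55 in cell lines, and Gm44148, on the strand opposite to Usp18, at −0.20 and −0.73. Whether the counting used strand is not known from the methods.

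Promoter windows from RefSeq on GRCm38.p6, reaching from 250 bases before the start site to 50 after it, were found for 4 of the 5 members, Isg15, Uba7, Ube2l6 and Herc6. They were searched on both strands for 4 motifs, a list written after the member promoters had been read, so its matches are a description only. The first was the core of the interferon-stimulated response element, to which interferon-activated factors bind, spelled here as GAAA, any 2 bases and GAAA again. The same windows were searched for the shortened core AAANNGAAA, which is contained in every match of the full core and was chosen from the letters of the Uba7 promoter. The stretch before the Isg15 start site is shown because it held the full core 3 times in overlapping copies, the first starting 78 bases before the start site and the last ending 57 bases before it. The Uba7 site is shown because it held the shortened core once, on the opposite strand, from 27 to 19 bases before the RefSeq start site. Both are written 5′ to 3′ along the gene, with the matched bases in capitals. The Uba7 stretch lies before the RefSeq start site but inside the annotated span of the gene given above, which begins at 107975505. The 2 annotations thus place the start of Uba7 differently. The stretches cover chr4:156200819-156200968 on the minus strand and chr9:107975534-107975563 on the plus strand.
Isg15: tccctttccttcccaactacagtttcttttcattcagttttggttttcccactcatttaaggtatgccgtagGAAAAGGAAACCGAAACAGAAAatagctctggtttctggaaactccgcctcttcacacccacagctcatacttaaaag
Uba7: gtctagTTTCACTTTtggtttcctgaaatc

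The full core was found in 1 of the 4 member promoters, against 3.44% of all 32851 promoters, and the shortened core in 2 of 4, against 10.6%. Neither was present in these windows of Ube2l6 and Herc6. In the members' families, members included, the shortened core was in 4 of 14 modifiers, 3 of 7 E1 and 1 of 27 E2 enzymes. It was also in 1 of 5 HERC genes and 3 of 36 proteases. The full core was in 1 of 14 modifiers, 1 of 7 E1 enzymes (not Uba7), 0 of 27 E2 enzymes, 0 of 5 HERC genes and 1 of 36 proteases. Of a list of 33 other type I interferon response genes, 24 had a promoter window. Of these 24 genes, 15 held the full core and 18 the shortened one. Family and list counts are of genes, with a match in any window of a gene counted. The shares of all promoters are of single windows, so the units differ. TTCNNNGAA, the core of the gamma-activated sequence, matched 0 of the 4 member windows, against 8.3% of all promoters. TGACNNNGC, the core of the antioxidant response element to which NRF2 binds, matched Herc6 once, on the opposite strand from 22 to 14 bases before the start site. That core was present in 12.4% of all promoters and in 3 of the 5 HERC genes, Herc6 among them. These are matches of letters and not measured binding.

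**Figure D1:**
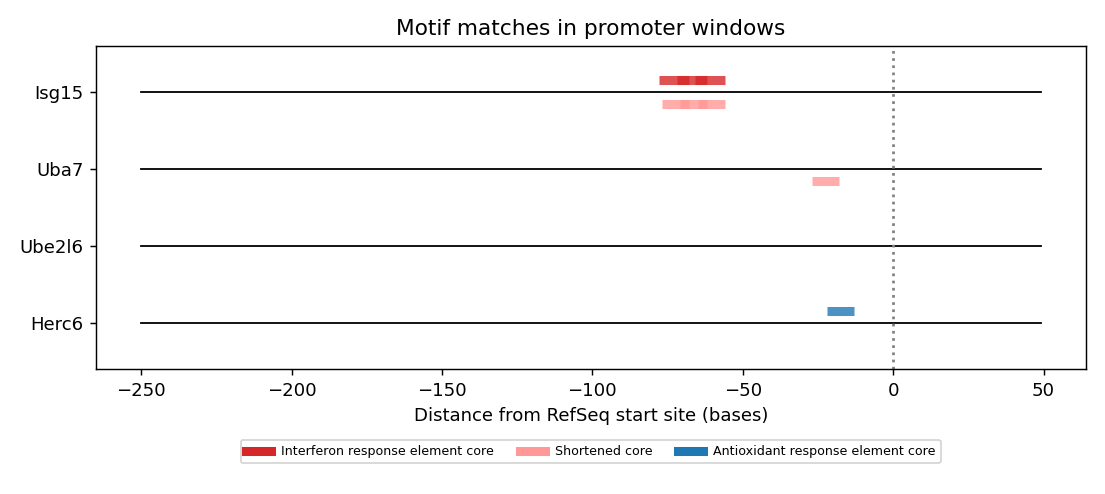
Motif matches in the promoter windows of the 4 members with a RefSeq promoter, by distance from the start site in bases. Bars mark matched stretches of the interferon-stimulated response element core, its shortened form and the antioxidant response element core; Isg15 has 3 overlapping full cores, from 78 to 57 bases before the start site, and Ube2l6 has no match.

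All 5 genes were higher in tumors than in cell lines, by 2.45 to 4.20 on the log2 scale with a median of 3.30. Over all genes, the median difference was 0.10. A difference above 1 was reached by 5 of 5 members, against 16.6% of all genes, and one above 2 by 5 of 5, against 7.57%. In the opposite direction, 3.96% of all genes had a difference below −1, and no member did. Isg15 stood at an average log2 CPM of 7.02 in tumors and 3.72 in cell lines, which equals 130 and 13.2 CPM. Its difference of 3.30 is a ratio of 9.84. Only 568 genes had a larger difference.

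The enzymes that attach ISG15 differed in the same direction. Uba7 stood at 4.69 in tumors and 1.95 in cell lines, a difference of 2.74 (25.9 CPM in tumors against 3.86 in cell lines). Ube2l6 stood at 6.43 in tumors and 3.99 in cell lines. Its difference of 2.45 (86.4 CPM in tumors against 15.9 in cell lines) was the smallest of the system. Herc6 stood at 4.98 in tumors and 1.59 in cell lines, a difference of 3.39 (31.6 CPM in tumors against 3.02 in cell lines). The ligase and the modifier thus had nearly the same difference, while the E1 and E2 enzymes lay below them. With quantile scaling, Herc6 was at 2.98 and Isg15 at 3.21. With the lowest value subtracted, an alternative chosen after seeing the data, they were at 3.62 and 3.35. The order of ligase and modifier thus depended on the calculation, while the E1 and E2 enzymes stayed below both. Without a replicate error the order was not tested.

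Usp18, which both removes ISG15 and dampens the interferon receptor, had the largest difference of the system. Its average log2 CPM was 4.74 in tumors and 0.53 in cell lines, or 26.7 and 1.45 CPM, a ratio of 18.4. The level in cell lines was only 1.59 above −1.05, the lowest value of that table, at which 523 genes sit. With the lowest value of each table subtracted on the CPM scale, an alternative chosen after seeing the data, the difference of Usp18 was 4.76. That of Isg15 was 3.35 by the same calculation.

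**Figure D2:**
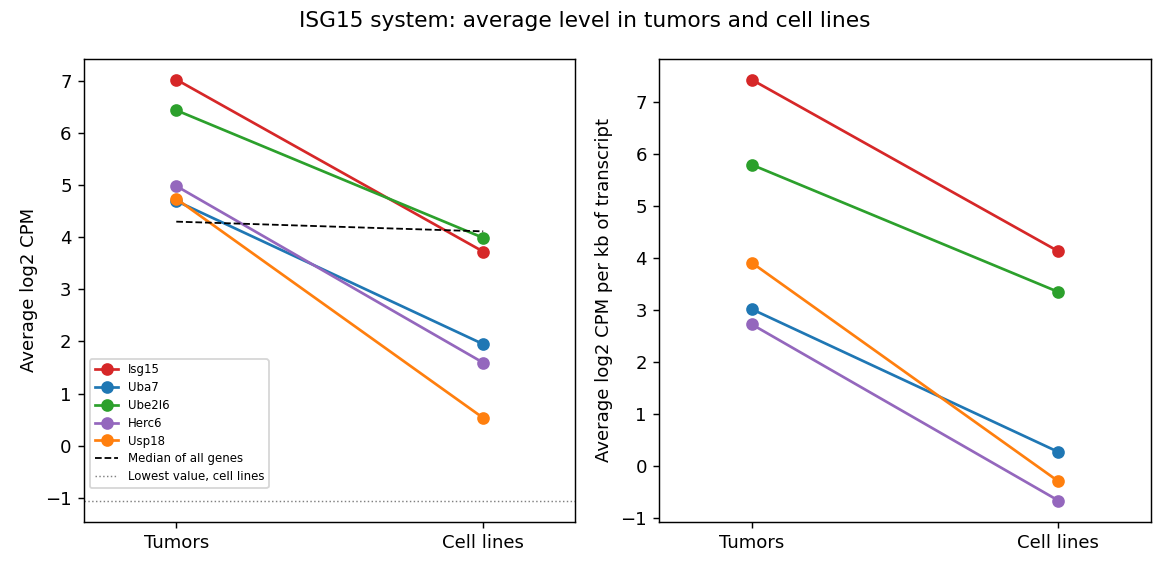
Average log2 CPM (left) and average log2 CPM per kb of transcript (right) of the 5 genes in tumors and cell lines, 1 authors' average per point, with lines joining the values of a gene. On the left, all 5 lie above the dashed median of all genes in tumors (4.30) and below it in cell lines (4.11).

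**Figure D3:**
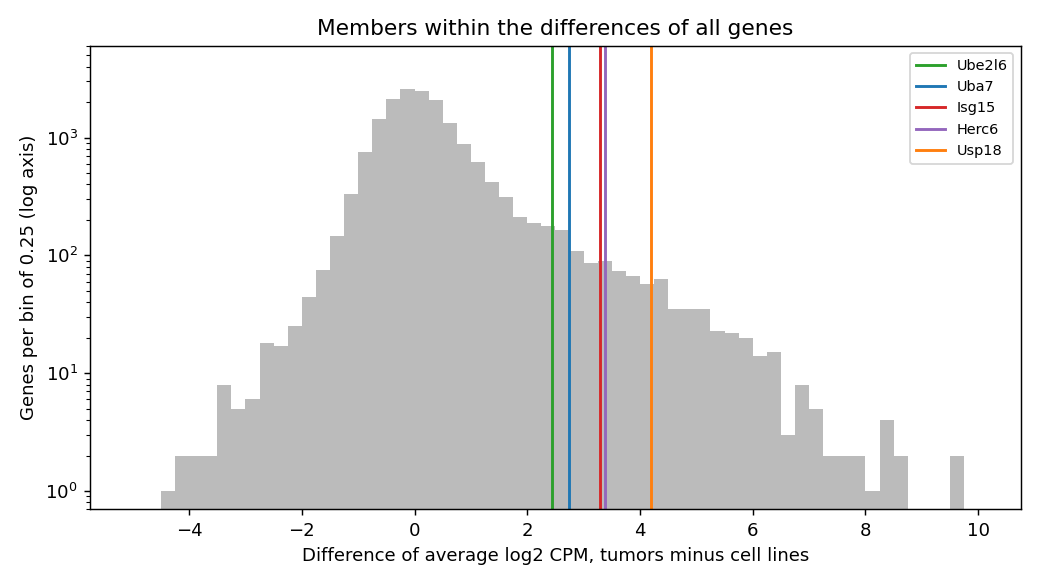
Number of genes per bin of the difference of average log2 CPM, tumors minus cell lines, on a log axis, for all 17285 genes, with the 5 members as vertical lines. The members lie in the right tail, from 2.45 for Ube2l6 to 4.20 for Usp18.

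Levels of different genes were set against each other per kb of transcript, using the longest coding transcript of each gene in GENCODE M21 or, for genes without one, the longest transcript. On that scale, Isg15 had the highest level of the system in both settings, at 7.43 in tumors and 4.13 in cell lines. Ube2l6 followed at 5.79 in tumors and 3.35 in cell lines. In tumors the order then was Usp18 at 3.91, Uba7 at 3.02 and Herc6 at 2.73. In cell lines it was Uba7 at 0.27, Usp18 at −0.29 and Herc6 at −0.66, so that the protease and the E1 enzyme changed places. Without a replicate error it cannot be said which neighbors in this order differ beyond the spread between samples. All levels per kb also include the added constant, which weighs most on low levels such as those of Usp18 and Herc6 in cell lines. Levels per kb without the constant were not computed. The distance between Isg15 and Herc6, the highest and the lowest, was 4.70 in tumors and 4.79 in cell lines.

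Among all genes, the level per kb of Isg15 was at percentile 97.4 in tumors and 69.9 in cell lines, where the percentile is the share of genes with a lower value. Ube2l6 was at percentile 90.3 in tumors and 57.7 in cell lines on this scale. The other 3 lay between 46.3 and 66.2 in tumors and between 18.3 and 25.4 in cell lines. Without division by length, the percentiles of average log2 CPM were 90.02 in tumors and 46.0 in cell lines for Isg15, 55.8 in tumors and 31.6 in cell lines for Uba7, and 83.3 in tumors and 48.8 in cell lines for Ube2l6. They were 60.3 in tumors and 29.3 in cell lines for Herc6, and 56.5 in tumors and 22.0 in cell lines for Usp18. By the size of its difference, Usp18 was at percentile 98.3, Herc6 at 97.0, Isg15 at 96.7, Uba7 at 95.5 and Ube2l6 at 94.4 of all genes.

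To see whether the whole ubiquitin machinery differed between tumors and cell lines, each member was set beside the other genes of its family. In all 5 families the ISG15 gene had the largest difference. Of 17 measured ubiquitin-like modifiers, only Isg15 had a difference above 1. The autophagy modifier Atg12 came next at 0.72, and the modifier Sumo3 was at −0.16. Of 9 measured E1 enzymes, only Uba7 exceeded 1, with Uba6, which activates ubiquitin and FAT10, next at 0.66. The lowest were Uba1, the main E1 enzyme of ubiquitin, at −0.86 and Sae1, a subunit of the SUMO E1 enzyme, at −0.84.

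Of 32 measured E2 enzymes, Ube2l6 at 2.45 was followed by Ube2g2, an enzyme of protein degradation at the endoplasmic reticulum, at 1.07, and the other 30 lay between −1 and 1. Ube2c, the E2 enzyme of the anaphase-promoting complex, had the lowest value at −0.84, followed by the NEDD8 enzyme Ube2m at −0.72. The 4 other HERC genes ranged only from −0.20 for Herc2 and −0.06 for Herc1 to 0.24 for Herc3, against 3.39 for Herc6. Of 42 measured ubiquitin-specific proteases, Usp18 alone was above 1. Usp35 was next at 0.95, and Cyld, an inhibitor of NF-κB signaling, and Usp5 were below −1 at −1.12 and −1.04. The medians of the other family members were 0.28 for modifiers, −0.14 for E1, −0.03 for E2, 0.03 for HERC genes and −0.27 for the proteases.

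**Figure D4:**
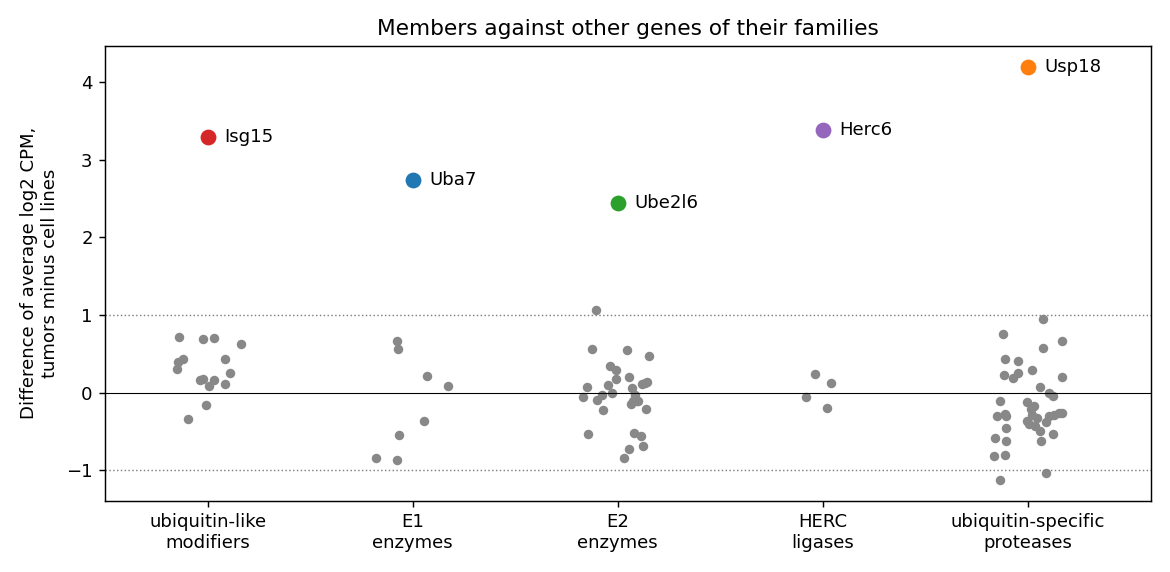
Difference of average log2 CPM, tumors minus cell lines, of each member (colored) and the other measured genes of its family (grey), with dotted lines at 1 and −1. Each member has the largest difference of its family, by 1.38 (Ube2l6 over Ube2g2) to 3.25 (Usp18 over Usp35).

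The members also changed their place within these families when levels per kb were ranked from the highest. Isg15 was at place 5 of 17 modifiers in tumors and at place 12 in cell lines. Ube2l6 was at place 4 of 32 E2 enzymes in tumors and at place 28 in cell lines. Herc6 was at place 2 of 5 HERC genes in tumors and at place 5 in cell lines, and Usp18 was at place 15 of 42 proteases in tumors and at place 40 in cell lines. Uba7 remained low, at place 8 of 9 E1 enzymes in tumors and at place 9 in cell lines.

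Other genes of the type I interferon response were higher in tumors as well. Of 33 such genes, 32 had a difference above 1 and 0 had one below −1, with a median of 3.47 against 3.30 for the 5 members. The largest differences were those of the nucleic acid sensor Zbp1 at 6.74 and the antiviral GTPase Mx1 at 5.72. The lowest were those of Ifi27 at −0.0017 and of Ifit2, an inhibitor of viral translation, at 1.35. Within this list, 12 genes had a larger difference than Usp18, 18 a larger one than Isg15 and likewise than Herc6, 20 than Uba7 and 23 than Ube2l6. The ISG15 genes thus lay inside the range of the interferon response list and not at its upper end.

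Of 7 partners and receptors of ISG15 and USP18, 4 had a difference above 1. Itgb2 and Itgal, the chains of the leukocyte integrin LFA-1 that is known as a receptor of secreted ISG15, had the largest, at 4.97 and 3.55. Itgal was at an average log2 CPM of 2.50 in tumors and at the lowest value of the table, −1.05, in cell lines, against which its difference is taken. Stat2, which recruits USP18 to the interferon receptor, was at 2.15 and is counted in the interferon list too, and Trim25, a ubiquitin ligase that is itself modified by ISG15, at 1.09. The receptor chain that USP18 binds, Ifnar2, was at 0.37 and its partner Ifnar1 at 0.58. Arih1, a ubiquitin ligase reported to act also in ISG15 conjugation, was at −0.10.

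Markers of host cells were higher in tumors as well. Of 53 listed markers of cells other than melanocytes, 42 were measured, of which 37 had a difference above 1 and 0 one below −1. Of 33 listed markers of immune cells, 25 were measured and 24 had a difference above 1, with a median of 4.16. Their summed level was 1397 CPM in tumors and 29.9 CPM in cell lines, where 22 of the 25 had an average log2 CPM below 0 and 11 sat at the lowest value. The 3 above 0 in cell lines were Laptm5 at 1.49, Cd68 at 1.09 and Cd14 at 3.69. In cell lines 17 of the 42 markers, 11 of them immune, were at the lowest value. Their difference could not be negative, since no tumor value was below −1.01. The deposited genes are labelled as filtered, so markers counted as not measured may have been removed for low levels. The pan-leukocyte marker Ptprc was at 5.70 in tumors and −0.73 in cell lines, and the macrophage marker Adgre1 at 5.85 and −0.93. T cell markers were low also in tumors, with the 3 measured of 6, Cd3g, Cd4 and Cd8a, between 0.16 and 1.45. Of 4 endothelial markers, 4 had a difference above 1, with a median of 5.86. Of 6 fibroblast markers, 4 had a difference above 1, and the collagen gene Col1a1, 1 of the 4, was at 10.88 in tumors and 9.70 in cell lines. The collagen genes Col1a2, at 10.51 and 10.31, and Col3a1, at 10.74 and 9.79, did not exceed 1. All 3 collagen genes were high in the cell lines themselves, so they do not mark host cells here. The part of these cells in the levels of the ISG15 genes was not tested, and in whole tumors fewer cells of a type and less RNA per cell cannot be told apart. In the cell lines the 5 ISG15 genes lay between 0.53 for Usp18 and 3.99 for Ube2l6, a range that also holds those 3 immune markers. Of 7 listed genes of the melanocyte lineage only 2 were measured, Mitf at 4.23 in tumors and 2.67 in cell lines and Pmel at 0.05 and −0.31. Pmel was near the lowest values, −1.01 in tumors and −1.05 in cell lines. These markers therefore give the labelled cell type little support, and those not measured may have been filtered out as low. Nfe2l2 itself was at 8.25 in tumors and 7.70 in cell lines, an average over edited and unedited samples that does not check the knockout.

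**Figure D5:**
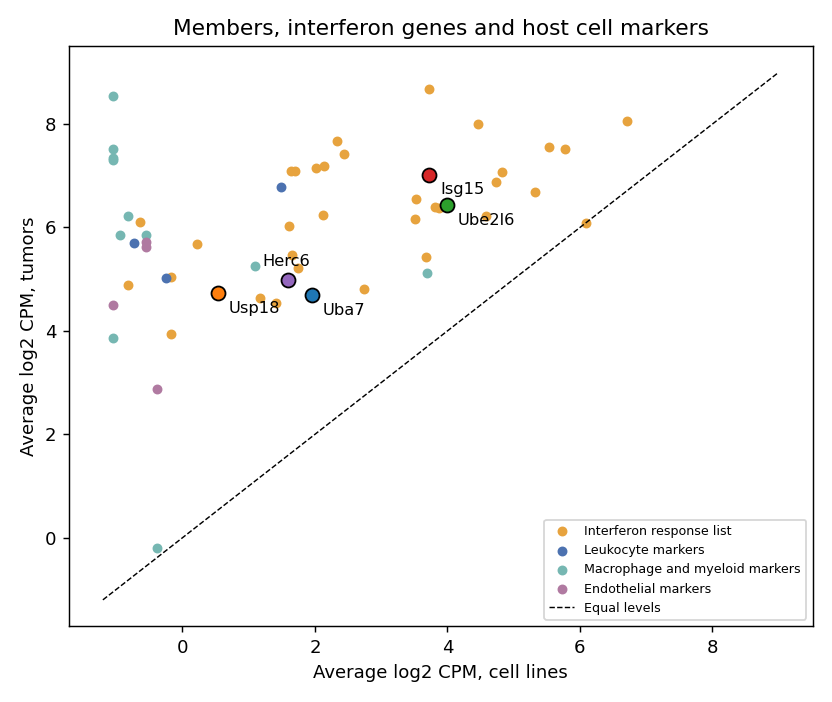
Average log2 CPM in tumors (vertical) against cell lines (horizontal) for the 5 members, the interferon response list and markers of leukocytes, myeloid and endothelial cells, with a dashed line of equal levels. The members lie above the line among the interferon genes, at 0.53 to 3.99 in cell lines, where most host cell markers are below 0.

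Of the 10 nearest measured neighbors, 1 on each side of each member, 3 had a difference above 1, against 16.6% of all genes, and 0 below −1. Not all of them are close: Vmn1r4 lies 622900 bases from Herc6 and Mug-ps1 905098 bases from Usp18. Agrn, which lies 1936 bases from Isg15 and encodes a matrix proteoglycan, was at 0.62, and Timm10 beside Ube2l6, a mitochondrial import chaperone, at 0.38. On the other side of Ube2l6, the complement inhibitor Serping1 was at 6.07, above every member. The other 2 were AW011738 beside Isg15 at 1.92 and Tuba8, a tubulin gene, beside Usp18 at 1.16. Tuba8 was at 0.11 in tumors and at the lowest value, −1.05, in cell lines, so its difference is taken against that value.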

How the data were processed

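Poly(A) RNA was isolated (RNeasy), and libraries were made with the NEBNext Ultra II kit. Tools listed in the processing notes of the submitters were TopHat2 2.1.1 and Bowtie2 2.3.2 beside FastQC, on mm10 (GRCm38). The counting program, annotation and normalization were not given in the sources read, which did not include the paper's supplementary methods. The deposited genes are labelled as filtered, by a rule not given in the sources read. The deposited values used were the authors' average log2 CPM of 17285 genes, 1 column for tumors and 1 for cell lines. Raised to the power of 2, they summed to 1008842 CPM in tumors and 1008356 CPM in cell lines, and to 1000253 and 1000010 once the lowest value of the table was subtracted from each gene, so a constant had been added before the logarithm. The tables also hold the authors' own comparison of knockout with control (log2 fold changes, p-values and adjusted p-values), which was not used. Single samples were not analysed here. Their depth is unknown, and the knockout tests planned for counts or CPM of samples were not run.

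Members, gene lists and motifs were chosen with earlier results of these data known. Named were the members, the 2 highest and 2 lowest differences of each list, members of a list called for the biology, and Nfe2l2. Some items that this rule or the description of the line would name are not reported here. Overlapping and neighboring genes were added later. Differences are tumors minus cell lines, described by thresholds of 1 and 2. The calculation was tested on simulated levels. Transcript lengths (for 17230 genes) and positions are from GENCODE M21, promoters from RefSeq. Alternatives were centring, quantile scaling, a level filter of 1 and division by length. Python 3.11.15, numpy 2.4.6, pandas 2.3.3 and matplotlib 3.10.9 were used.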

Additional observations from a re-analysis of the deposited data

How the results depend on the processing

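All 5 members kept a positive difference above 2 under each of the 3 alternatives run on it. Of these, subtraction of the lowest value could only raise the members' differences, since nearly the same CPM (0.497 and 0.483) was taken from both averages. Minus the median difference of all genes, the differences were 3.20 for Isg15, 2.64 for Uba7, 2.34 for Ube2l6, 3.28 for Herc6 and 4.10 for Usp18. With quantile scaling of the tables they were 3.21, 2.38, 2.35, 2.98 and 3.68 in the same order of genes. With the lowest value subtracted, an alternative chosen after seeing the data, they were 3.35, 2.91, 2.48, 3.62 and 4.76. Against the 12676 genes above an average log2 CPM of 1 in both tables, the percentiles of the differences were 99.2, 98.8, 98.3, 99.4 and 99.7. Usp18 was not itself among these genes, since its level in cell lines was 0.53, so its 99.7 does not come from passing that filter. Among genes above 1 in that table, the percentiles of the levels were 87.9, 46.3, 79.6, 51.7 and 47.0 in tumors. In cell lines they were 27.8, 8.53, 31.5 and 5.49 without Usp18, whose level there was under 1. Per kb of transcript, the percentiles were 97.4, 50.7, 90.3, 46.3 and 66.2 in tumors and 69.9, 25.4, 57.7, 18.3 and 21.0 in cell lines. Of 32 recomputed counts of lists and of all genes, 27 stayed the same or within 1.5 times. The 27 include counts of 0 that stayed 0, and a count of 0 below −1 cannot change with a threshold of 2. The count of E2 enzymes above 1 went to 1 with a threshold of 2 and to 1 with centring, and that of proteases below −1 to 0 with a threshold of 2. A threshold of 2 left 1308 genes higher and 86 lower. The causes were not tested. No paired analysis was possible because the columns used carry no replicate numbers, and for the same reason leaving out replicates and other count tools were not run. Depth is unknown, so counting error cannot be given for the low levels of Usp18 and Herc6 in cell lines.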
